A study of Mus musculus and Homo sapiens with 12 samples.

Results

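In the CCD841 cells analysed here, most regions with a butyryl mark in both replicates lay inside introns, as did most peak regions. In CUT&Tag an antibody brings a transposase to the mark, and the enzyme leaves sequencing adapters in the DNA close by. All rows of the 4 CCD841 peak lists were merged into 547275 regions, and 160182 of them (29.3%) were kept because both replicates of H3K18bu, both replicates of H4K12bu, or both pairs had a row there. Of the kept regions, 89877 (56.1%) lay inside a GENCODE gene without touching an exon or the 1 kb on either side of a gene start, and these intronic regions are the members described below. The remainder comprised 20455 regions over exons, 13781 at gene starts and 36069 outside genes. Among all merged regions, kept or not, 58.3% were intronic, so the share of the kept regions was close to that of all. The intron left by this rule covered 1572.9 Mb.

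CCD841 cells are an established human line derived from normal colon, which the submitters label as epithelial. All 4 libraries came from cells given 1 mM NaBu (sodium butyrate), for 12 to 16 h by the sample labels and 12 h by the methods, with 2 replicates for H3K18bu and 2 for H4K12bu. No untreated CCD841 library was analysed here, so every value describes treated cells and none describes a response to butyrate. Nothing in the labels says whether the replicates were separate cultures, and with 2 libraries a mark an exact two-sided test cannot go below p = 0.333, so no comparison of the marks was tested.

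Butyrate is a short-chain fatty acid made from fiber by gut bacteria and is the main fuel of colon epithelial cells. Through butyryl-CoA it can be attached to lysines of histones, where butyrylation, like acetylation, removes the positive charge of the lysine, and butyrate also inhibits histone deacetylases. Introns hold many enhancers, the stretches at which sequence-specific factors such as AP-1, a dimer of FOS and JUN family proteins, bind DNA, and the first intron is known to be especially rich in them.

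The members fell into 3 groups. H3K18bu alone marked 35590 members, H4K12bu alone marked 31487, and both marks were found in 22800, which was 39.0% of the 58390 H3K18bu members and 42.0% of the 54287 H4K12bu members. "Alone" means that the other mark lacked a row in at least 1 of its replicates. Of the H3K18bu-alone members, 47.1% had a row in 1 H4K12bu replicate, and of the H4K12bu-alone members, 35.6% had a row in 1 H3K18bu replicate. Members with both marks were wider, with a median of 662 bases against 367 for H3K18bu alone and 362 for H4K12bu alone, as the rule favours, since a region joins all rows that overlap and these members need rows of all 4 libraries. Because each list was limited to about 300000 peaks, the numbers of regions do not measure how much of either mark the cells carried.

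The deposited fold is the height of a peak over the local background of its own library. Its median over the H3K18bu members was 4.58 in replicate 1 and 4.30 in replicate 2, and over the H4K12bu members 4.25 and 3.68. The pileup, which is the number of extended read ends that cover the summit, had medians of 17, 14, 16 and 8 in the same order. H4K12bu replicate 2 was the thinnest library: 74.7% of its rows at members had a q below 0.05, against 100% in each of the other libraries. Replicates placed the summit within 100 bases of each other in 67.4% of the H3K18bu members and 60.2% of the H4K12bu members. Across members, the log2 folds of the replicates had a Pearson r of 0.633 for H3K18bu and 0.495 for H4K12bu, given as a description over regions that share libraries.

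A few sequences were taken from the strongest members and from the strongest member of each gene densest in a mark. Windows of 300 bases around the strongest summit were read from GRCh38, plus strand, 5′ to 3′. Of the 13 windows read for H3K18bu, 4 hold an AP-1 match, and of the 15 for H4K12bu none does, so the printed set is not typical. The first 3 are printed because they hold the AP-1 letters TGAGTCA or their reverse complement TGACTCA, which are in capitals, and because both marks cover them.

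EGFR, intron 1 of 27, chr7:55132957-55133256: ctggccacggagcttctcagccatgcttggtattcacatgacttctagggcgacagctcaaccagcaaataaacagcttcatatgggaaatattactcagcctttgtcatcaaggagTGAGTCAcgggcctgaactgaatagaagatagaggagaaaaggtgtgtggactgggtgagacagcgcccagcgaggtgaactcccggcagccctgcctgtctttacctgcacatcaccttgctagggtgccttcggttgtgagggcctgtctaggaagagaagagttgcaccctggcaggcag

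HS1BP3, chr2:20584639-20584938: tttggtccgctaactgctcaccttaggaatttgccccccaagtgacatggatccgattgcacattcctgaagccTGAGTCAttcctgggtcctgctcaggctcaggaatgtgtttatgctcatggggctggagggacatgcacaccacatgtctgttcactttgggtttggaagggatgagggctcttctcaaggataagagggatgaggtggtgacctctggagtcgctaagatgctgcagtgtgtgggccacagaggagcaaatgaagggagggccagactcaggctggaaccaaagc

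ADORA2B, intron 1 of 1, chr17:15959240-15959539: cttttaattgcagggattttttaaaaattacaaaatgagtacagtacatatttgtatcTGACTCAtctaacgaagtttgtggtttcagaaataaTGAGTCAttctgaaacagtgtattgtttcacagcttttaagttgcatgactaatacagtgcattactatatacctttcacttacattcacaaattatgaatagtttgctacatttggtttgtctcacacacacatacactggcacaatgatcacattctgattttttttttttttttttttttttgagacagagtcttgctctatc

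The next window is the strongest H4K12bu member of CTBP1, which carried H4K12bu alone and holds no match to these letters. The last is a member in COL23A1 that ranked second by H3K18bu and is built from copies of a short unit.

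CTBP1, intron 3 of 9, chr4:1230457-1230756: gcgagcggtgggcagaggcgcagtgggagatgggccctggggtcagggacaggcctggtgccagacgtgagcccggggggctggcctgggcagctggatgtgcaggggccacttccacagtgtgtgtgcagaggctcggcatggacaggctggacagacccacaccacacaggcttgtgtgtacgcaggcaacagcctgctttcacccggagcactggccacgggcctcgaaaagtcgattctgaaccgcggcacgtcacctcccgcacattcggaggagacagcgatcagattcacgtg

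COL23A1, intron 1 of 28, chr5:178585451-178585750: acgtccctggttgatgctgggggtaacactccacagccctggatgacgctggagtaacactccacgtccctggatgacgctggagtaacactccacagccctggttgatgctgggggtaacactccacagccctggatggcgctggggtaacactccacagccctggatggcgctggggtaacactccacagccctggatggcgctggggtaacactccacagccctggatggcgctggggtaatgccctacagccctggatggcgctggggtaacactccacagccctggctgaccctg

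EGFR encodes the epidermal growth factor receptor. Its printed member had H3K18bu folds of 11.5 and 10.6 and H4K12bu folds of 9.72 and 6.55, with pileups of 134, 129, 78 and 24. It was the fifth strongest H3K18bu member when members were ranked by the lower −log10 p of the replicates. The other 4 at the top lay in LINC00545, COL23A1, which encodes a membrane collagen, RAD18, a ubiquitin ligase of DNA repair, and KCNMA1, a calcium-activated potassium channel. In the COL23A1 window 82.7% of the 12-base words occurred more than once, in KCNMA1 74.4%, in LINC00545 34.9% and in RAD18 8.30%, against 0 in the EGFR window. The central 50 bases of COL23A1 and KCNMA1 each occurred 2 times in the genome, so that reads there may have been placed among copies.

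The strongest H4K12bu members lay mostly in duplicated sequence. They were in ENSG00000280441 on chromosome 21, the pseudogene CROCCP2, the pseudogene transcript DTX2P1-UPK3BP1-PMS2P11, CRAMP1 and DUX4, a gene inside a repeat array. The central 50 bases occurred 2, 2, 2, 1 and 3 times in the genome in that order. CRAMP1 was thus the one of the 5 with a unique centre, and it had folds of 9.32 and 10.4 for H4K12bu and of 4.16 and 4.22 for H3K18bu. Heights at the other 4 are uncertain for this reason.

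First and later introns were compared by density, the number of members per 100 kb of intron left after exons and gene-start windows were taken out. Introns were numbered along the canonical transcript of each gene, which gave 381.13 Mb of first intron and 1015.9 Mb of later intron. H3K18bu members were denser in first introns, at 4.27 against 3.51 per 100 kb, a ratio of 1.21. H4K12bu members were denser in later introns, at 3.19 against 3.73 per 100 kb, a ratio of 0.856. The single H3K18bu libraries gave ratios of 1.18 and 1.15 and the H4K12bu libraries 0.869 and 0.886, so that the values of the marks did not overlap. The contrast was wider for H3K18bu alone, at 1.29, and H4K12bu alone, at 0.699, while members with both marks had a ratio of 1.10. That ratio lies between those of the marks, so leaving the shared members out of both sets widens the contrast by itself.

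The H4K12bu value depended on the length of the intron. In introns of 2 to 5 kb the first-to-later ratio of H4K12bu was 0.291, from 183 members in first introns and 5853 in later ones. It was 0.528 in introns of 5 to 10 kb, 0.741 at 10 to 20 kb, 0.989 at 20 to 50 kb and 1.24 over 100 kb. Both H4K12bu libraries kept this order, from 0.349 and 0.470 at 2 to 5 kb to 1.20 and 1.11 over 100 kb. H3K18bu ran from 0.790 at 2 to 5 kb to 1.25 over 100 kb. In introns of up to 2 kb the ratios were 1.11 for H3K18bu and 0.194 for H4K12bu, from 53 and 20 members in first introns. Over all introns of 10 kb or more the ratio was 1.15 for H3K18bu and 1.002 for H4K12bu. That H4K12bu value pools classes on both sides of 1. A short first intron lies near the excluded gene start, where a member of either mark had to fit whole between that window and the next exon, and the part of this in the ratios was not tested.

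**Figure D1:**
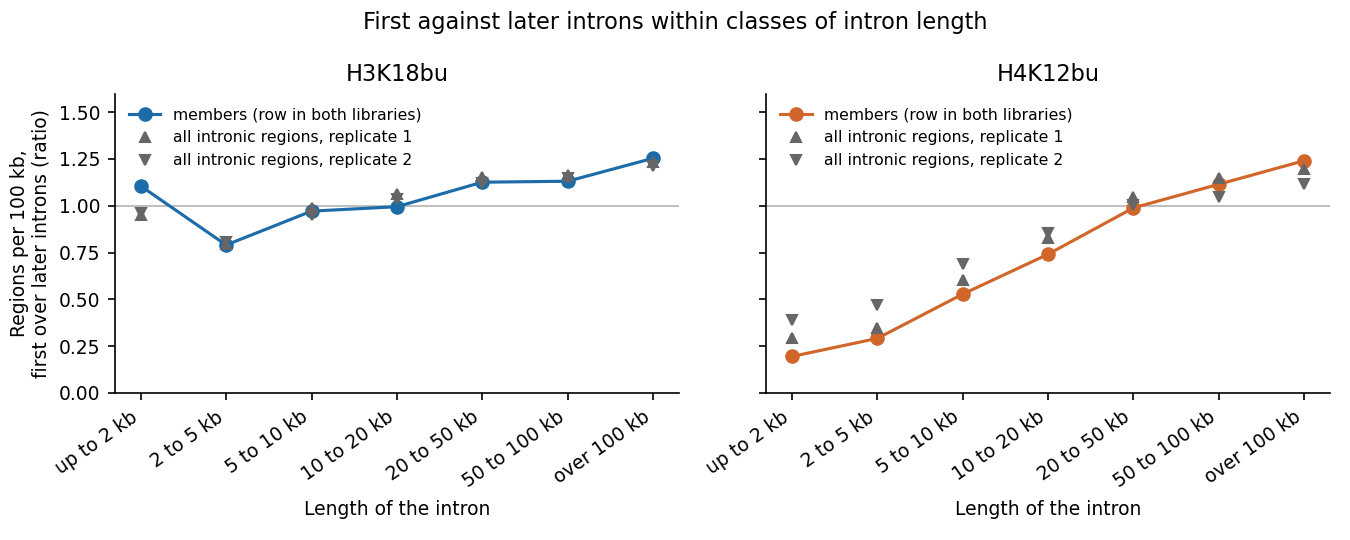
Ratio of members per 100 kb in first over later introns (vertical axis) in classes of intron length (horizontal axis), for H3K18bu on the left and H4K12bu on the right. Coloured points are members, triangles are all intronic regions of each single library, and the grey line marks equal density; H4K12bu climbs from 0.291 at 2 to 5 kb to 1.24 over 100 kb.

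At matched distance from the gene start, first introns stood out for H3K18bu. Between 5 and 10 kb from the start, H3K18bu density was 4.04 per 100 kb in first introns and 2.08 in later introns, a ratio of 1.95. It was 1.76 at 10 to 20 kb and 0.930 beyond 200 kb, and for H4K12bu it was 0.795 at 1 to 5 kb, 1.02 at 5 to 10 kb, 0.947 at 10 to 20 kb, 0.849 at 20 to 50 kb, 0.732 at 50 to 100 kb, 0.641 at 100 to 200 kb and 0.727 beyond 200 kb. H4K12bu was thus less dense in first introns in 6 of the 7 classes of distance. When the bodies of genes of at least 20 kb were cut into 10 equal parts, both marks were sparsest in the part next to the start. The density there was 3.22 per 100 kb for H3K18bu and 2.63 for H4K12bu. In the other 9 parts H3K18bu stayed between 3.58 and 3.97 and H4K12bu between 3.39 and 3.71. The part next to the start adjoins the gene-start window, and a region touching that window was left out whole. How much this thinned that part was not tested.

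The marks were densest in introns of different length. H4K12bu density was highest in introns of 2 to 5 kb, at 4.87 per 100 kb, and lowest in introns over 100 kb, at 2.11. H3K18bu density was 1.71 in introns of up to 2 kb and 2.63 in those of 2 to 5 kb, reached 4.64 at 50 to 100 kb and was 3.38 over 100 kb. From introns of 2 to 5 kb to those over 100 kb, the H4K12bu libraries went from 11.9 to 5.02 and from 14.5 to 8.10 regions per 100 kb, and the H3K18bu libraries from 6.14 to 6.54 and from 6.98 to 7.13. In the short introns both H4K12bu libraries were above both H3K18bu libraries, whereas in those over 100 kb the marks overlapped. The libraries held 118791 and 130450 intronic regions for H3K18bu and 129839 and 173842 for H4K12bu, and these densities are not scaled to that. Density also changed with distance from the nearest exon. H4K12bu-alone members were densest 0.5 to 1 kb from an exon, at 3.42 per 100 kb, and thinned to 1.18 beyond 10 kb, whereas H3K18bu-alone members went from 2.11 to 2.32 over the same range with a top of 2.66 at 5 to 10 kb. In the single libraries, H4K12bu replicate 1 went from 11.3 at 0.5 to 1 kb to 5.81 beyond 10 kb and replicate 2 from 13.7 to 8.89, whereas the H3K18bu replicates went from 7.38 to 7.07 and from 8.19 to 7.72. Within 0.5 kb of an exon, where a member has little room without touching the exon, each group was thinner than at 0.5 to 1 kb, and H4K12bu alone, at 2.12, was still denser than beyond 5 kb.

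**Figure D2:**
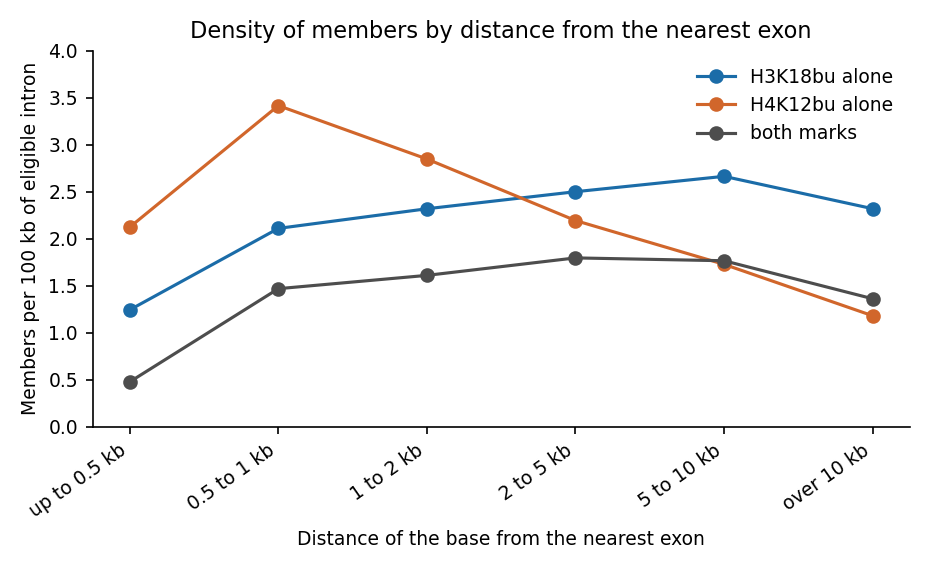
Members per 100 kb of eligible intron (vertical axis) by distance from the nearest exon (horizontal axis), for members with H3K18bu alone, H4K12bu alone and both marks. H4K12bu alone is highest at 0.5 to 1 kb, at 3.42, and lowest beyond 10 kb, at 1.18.

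Members of the marks lay in genes of different length and kind. The median length of the gene around a member was 199 kb for H3K18bu and 160 kb for H4K12bu, and 191 and 191 kb against 156 and 171 kb in the single libraries. Of the H4K12bu-alone members, 90.6% were in protein-coding genes and 8.56% in lncRNA genes, whereas 26680 of the 35590 H3K18bu-alone members were in protein-coding genes and 24.1% in lncRNA genes. Over all protein-coding genes the density was 4.03 per 100 kb for H3K18bu and 4.23 for H4K12bu, and over all lncRNA genes it was 3.07 and 1.72. In the single libraries, lncRNA genes had 6.25 and 6.76 H3K18bu regions and 4.16 and 7.08 H4K12bu regions per 100 kb. The marks overlapped there through H4K12bu replicate 2, but these values are not scaled to the number of regions in each library. From protein-coding to lncRNA genes, density fell from 8.21 to 6.25 and from 9.07 to 6.76 in the H3K18bu libraries. It fell further in both H4K12bu libraries, from 10.1 to 4.16 and from 12.9 to 7.08.

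In protein-coding genes the balance of the members changed with the amount of intron. The density of H4K12bu members over that of H3K18bu members was 1.58 in genes with 20 to 50 kb of eligible intron, 1.10 at 100 to 200 kb, 0.851 at 200 to 500 kb and 0.735 over 500 kb. H4K12bu members were densest in genes with 100 to 200 kb of intron, at 5.32 per 100 kb, and H3K18bu members in genes with 200 to 500 kb, at 5.04. The single H4K12bu libraries were highest at 50 to 100 kb, at 12.6 and 14.9, against 12.3 and 14.8 at 100 to 200 kb. In the single libraries the marks did not overlap at 20 to 50 kb, where H3K18bu had 7.06 and 7.83 regions per 100 kb and H4K12bu 12.4 and 14.6. They overlapped at 200 to 500 kb, with 9.77 and 10.8 against 9.99 and 13.1, and over 500 kb, with 5.66 and 6.13 against 4.88 and 8.16. The higher H3K18bu density of the longest genes was thus seen in regions of both replicates and not in each library. The libraries also differed over all protein-coding genes, with 8.21 and 9.07 for H3K18bu against 10.1 and 12.9 for H4K12bu. The values of the single libraries are not scaled to this, so their overlap does not compare the marks relative to each library's own level. The longest class was the sparsest of those above 20 kb for each mark, at 2.83 for H3K18bu and 2.08 for H4K12bu.

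**Figure D3:**
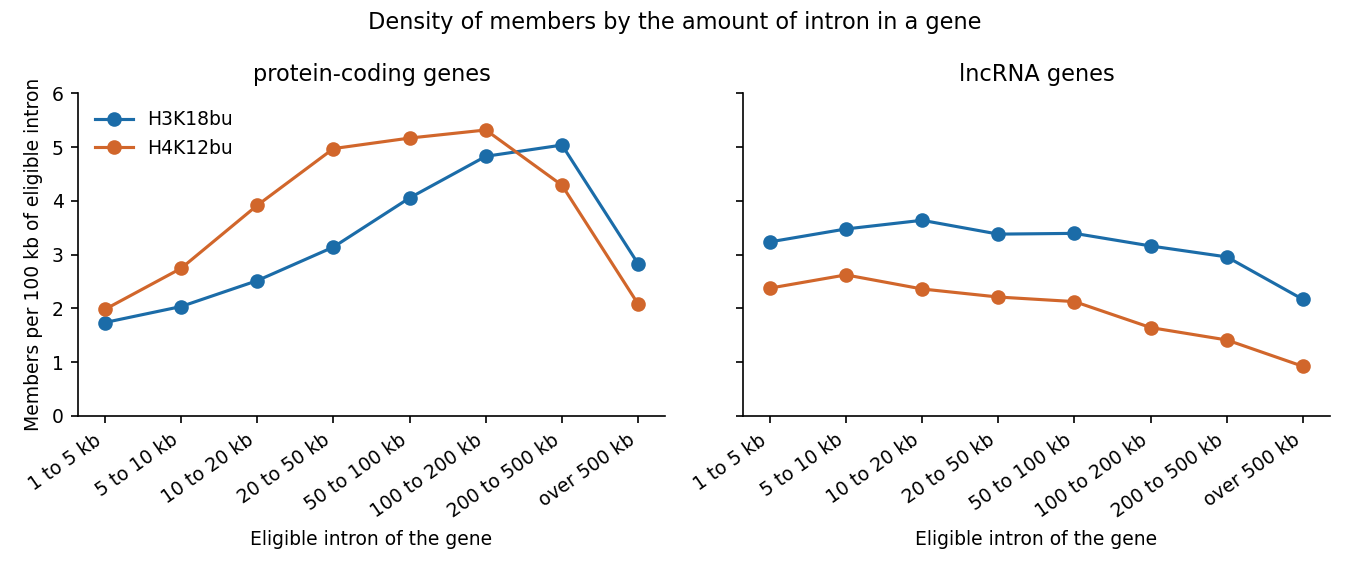
Members per 100 kb of eligible intron (vertical axis) by the amount of eligible intron in a gene (horizontal axis), for protein-coding genes on the left and lncRNA genes on the right. In protein-coding genes the H4K12bu line lies above the H3K18bu line up to 200 kb and below it beyond, a crossing of members that the single libraries do not all show, and in lncRNA genes it lies below throughout.

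Of the 30964 genes of any kind with at least 1 kb of eligible intron, 38.5% held an H3K18bu member and 41.8% an H4K12bu member. Of 17426 protein-coding genes with at least 1 kb of eligible intron, 45.2% held an H3K18bu member and 53% held an H4K12bu member. Among the 10032 with at least 20 kb, where length limits the count less, the shares were 67.7% and 76.6%. Of these 10032 genes, 5885 held both marks, 911 H3K18bu only, 1801 H4K12bu only and 1435 neither. Across the same genes the densities of the replicates had a Spearman correlation of 0.857 for H3K18bu and 0.822 for H4K12bu, and those of the marks 0.379, as a description over genes that share libraries. Of the 10032 genes, those with a member had a median density of 4.56 per 100 kb for H3K18bu and 5.51 for H4K12bu. In lncRNA genes with at least 20 kb and a member the medians were 5.10 and 2.80. Over all genes with at least 20 kb of eligible intron, those with a member had 4.70 for H3K18bu and 4.71 for H4K12bu.

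The genes with the highest density had several times this value, which is what chose them, and their order depended on how many rows of the lists were used. With the 100000 strongest rows of each list SPOCK2 had 17.3, KCNJ12 21.3, SLC25A37 5.30, KRT86 5.16 and IL7R 4.97 H3K18bu members per 100 kb. Over genes of all kinds the highest H3K18bu density was 34.4 per 100 kb. Among protein-coding genes SPOCK2, which encodes an extracellular matrix proteoglycan, led with 7 H3K18bu members in 23.1 kb of intron, or 30.3. It held 12 and 10 H3K18bu regions and 5 and 1 H4K12bu regions in the single libraries and no H4K12bu member, and all 7 members were in its first intron. KCNJ12, an inward rectifier potassium channel gene with a near-identical copy elsewhere in the genome, followed with 11 H3K18bu members, 22 and 18 regions in the libraries, and a density of 29.2, and it exceeded SPOCK2 in each single H3K18bu library, at 58.5 and 47.9 against 51.9 and 43.3 regions per 100 kb. Next came SLC25A37, a mitochondrial iron importer, at 26.5, the hair keratin gene KRT86 at 25.8 and SLC1A7, a glutamate transporter, at 25.7.

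ADORA2B encodes the adenosine A2B receptor, and 8 members lay in its single intron. Its 7 H3K18bu members gave 25.2 and its 6 H4K12bu members 21.6 per 100 kb, with 11, 9, 9 and 10 regions in the libraries, so this gene was dense in both marks. IL7R, the interleukin 7 receptor chain, had 24.8 H3K18bu members per 100 kb, ADHFE1, a hydroxyacid-oxoacid transhydrogenase, 24.7, HS1BP3 24.7 and ENSG00000258691 23.5. Without H3K18bu replicate 1 the 10 protein-coding genes densest in H3K18bu had 25.2 to 45.2 regions per 100 kb. Without replicate 2 they had 29.8 to 55.8, and KCNJ12 was the highest each time. The densest lncRNA genes for H3K18bu were ENSG00000287155 at 29.8, ENSG00000287251 at 29.5 and SEMA3F-AS1 at 28.7.

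FAM83G had the highest H4K12bu density with 10 members in 25.6 kb of intron, or 39.0 per 100 kb, and 2 H3K18bu members. The libraries held 16 and 12 H4K12bu regions and 5 and 6 H3K18bu regions there. With the 100000 strongest rows it had 11.7 per 100 kb, below CTBP1 at 16.4, MTA1 at 16.3 and PHF2 at 12.7, and without H4K12bu replicate 2 it had 62.4. CTBP1, a transcriptional corepressor, had 7 H4K12bu members, or 28.7 per 100 kb, with 12 and 13 regions in the libraries. CRBN, the substrate receptor of a ubiquitin ligase, had 6 members and 27.9 per 100 kb, or 4.65 with the strongest rows, from 8 and 9 H4K12bu regions, and no H3K18bu region in either library.

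MAU2, part of the complex that loads cohesin onto DNA, had 7 H4K12bu members and 26.4 per 100 kb, with 9 and 11 H4K12bu regions against 0 and 1 H3K18bu regions. NEK6, a mitotic kinase, had 24 H4K12bu members over 86.5 kb, and PHF2, a histone demethylase, had 25 over 94.9 kb, the most among these 10 genes. Both also held H3K18bu, with 15 and 13 members. The other genes were BDKRB2, the bradykinin B2 receptor, at 27.4 per 100 kb, which lies almost wholly inside ENSG00000258691 and shares its members with it, SLX9 at 25.9, MTA1, a subunit of the NuRD complex, at 25.6, and the histone variant gene MACROH2A1 at 25.6. Without H4K12bu replicate 1 these 10 genes had 36.2 to 46.9 H4K12bu regions per 100 kb, and without replicate 2 they had 33.9 to 62.4. With q below 0.05 MACROH2A1 had 14.9 and SLX9 17.3. Of lncRNA genes, MED28-DT had 28.6, MIRLET7BHG 27.0 and ENSG00000290796 20.7.

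**Figure D4:**
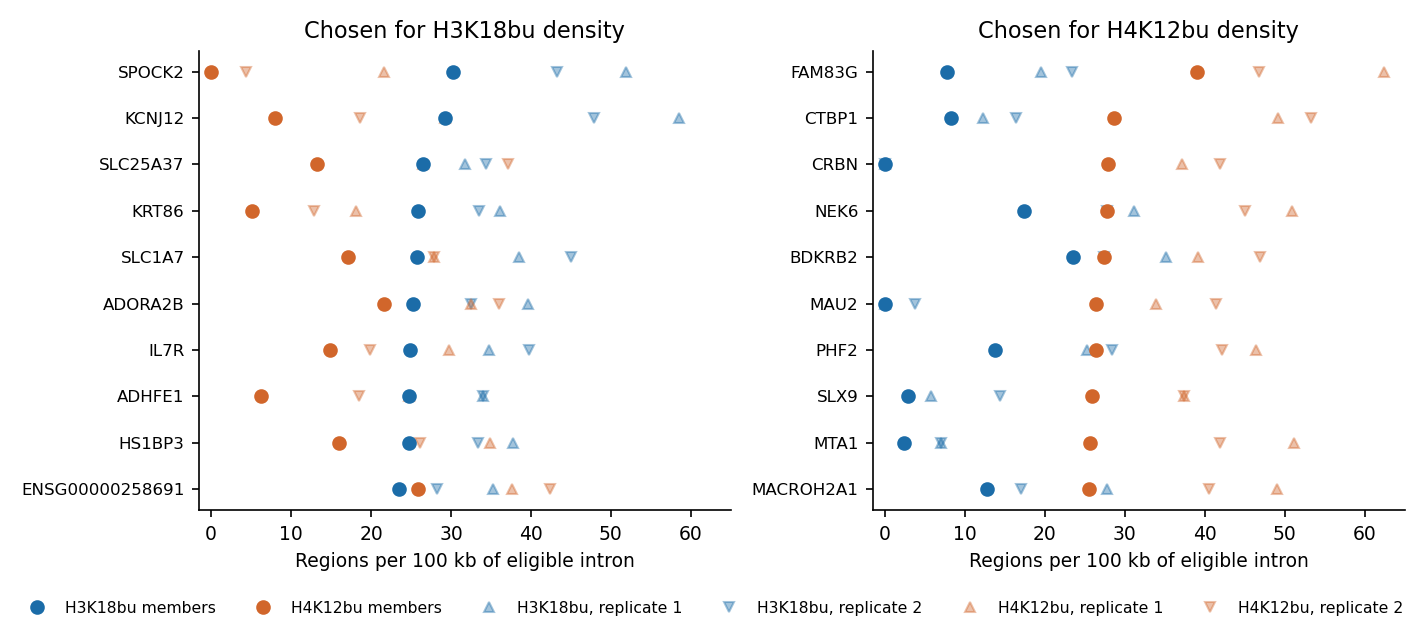
Regions per 100 kb of eligible intron (horizontal axis) in the 10 protein-coding genes with the highest H3K18bu density (left) and H4K12bu density (right). Circles are members of each mark and triangles the regions of each single library; the genes were chosen by the circles of their own panel, where SPOCK2 reaches 30.3 and FAM83G 39.0.

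By number, the leading genes were long. PTPRM, a receptor tyrosine phosphatase of cell contacts, held 142 members, PARD3B, a polarity protein gene, 132, the transcription factor gene RUNX1 125, the recombination gene RAD51B 120 and AGAP1 119. RUNX1 was unequal between the marks, with 115 H3K18bu and 34 H4K12bu members, from 194 and 208 H3K18bu regions and 87 and 86 H4K12bu regions in the libraries. AGAP1 had 69 H3K18bu and 91 H4K12bu members.

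Some genes held many members of 1 mark and none of the other. NOS1AP had 26 H3K18bu members and no H4K12bu member, although the libraries held 6 and 18 H4K12bu regions in it. FAM9B had 14 and FOXO1, a forkhead factor acting below insulin signalling, 13, all of them in its first intron. MDN1, a giant ATPase of ribosome assembly with 101 introns, had 14 H4K12bu members, none in the first intron, and FOXP2 and NELL2 had 12 each. Per 100 kb that was 10.2 in MDN1 but only 2.07 in FOXP2 and 2.97 in NELL2, beside 4.23 over all protein-coding genes. FOXP2 held 26 and 79 H4K12bu regions in the replicates and no H3K18bu region in either.

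The genes with the most intron and no member included several that act at synapses. PTPRD, a synaptic receptor phosphatase with 2263 kb of eligible intron, had no H3K18bu region in either library, and 2 and 61 H4K12bu regions in replicates 1 and 2. GRM7, a glutamate receptor gene, had 0 and 21, the synaptic gene LRRTM4 3 and 8, and GALNT17 1 and 12. In each of these 4 genes the regions came mainly from the thinner H4K12bu library.

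Adhesion and signalling genes were read as lists, beside 4.03 H3K18bu and 4.23 H4K12bu members per 100 kb over all protein-coding genes, and the highest and lowest genes were taken from those with at least 20 kb of intron. The shares of genes that hold a member stand beside 45.2% and 53% of all protein-coding genes with introns, and 67.7% and 76.6% of those with at least 20 kb. Focal adhesion genes, which tie the actin skeleton to the matrix, had 9.78 and 8.93 per 100 kb, and 15 and 17 of the 20 with introns held a member of the mark. TNS3, a tensin, was the densest for H3K18bu with 52 H3K18bu members and 49 H4K12bu members, and the libraries held 79, 86, 92 and 101 regions in it. The talin gene TLN1 and the integrin gene ITGAV held no H3K18bu member. BCAR1, an adaptor of focal adhesions, had the highest H4K12bu density, at 19.4, and its relative NEDD9 the lowest, at 1.67.

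TGF-beta pathway genes had 8.18 and 8.93 per 100 kb, with 16 and 17 of 19 genes holding a member, or 84.2 and 89.5%. The inhibitor SMAD6 was densest for each mark, with 14 H3K18bu members and 11 H4K12bu members, whereas the receptor gene TGFBR1 held no member of either mark. TGFB1 and SKIL lacked H3K18bu members and SMAD7 H4K12bu members. Wnt pathway genes had 8.18 and 7.33, with 17 of 21 genes for each mark, from TLE1 at 12.9 for H3K18bu and TCF7 at 24.8 for H4K12bu down to TLE3 without an H3K18bu and FZD6 without an H4K12bu member. Ion transport genes had 8.26 and 6.65, in 18 and 21 of 23 genes. KCNQ1 led H3K18bu there at 13.5, KCNMA1 led H4K12bu at 10.3, and the colonocyte chloride exchanger gene SLC26A3 held no member.

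Receptor tyrosine kinase genes had 5.84 and 4.09 per 100 kb, in 16 of 20 genes for each mark. For H4K12bu that is close to the share of all protein-coding genes with at least 20 kb. KIT was densest for H3K18bu, with 11 members, and EPHB2 for H4K12bu, with 28. EGFR had 26 H3K18bu and 25 H4K12bu members, from 51, 38, 54 and 58 regions in the libraries, while FGFR2 held none. Adherens junction genes had 4.24 and 3.35 in all. The very long genes CTNNA2 and CTNNA3 had 1.05 and 0.441 for H3K18bu, and the medians over genes were 5.63 and 5.80 against 2.74 and 3.94 in all protein-coding genes with at least 20 kb. NECTIN1 was highest for H3K18bu at 20.8 and JUP for H4K12bu at 18.5, and CDH1 and CDH3 held no H4K12bu member. Members were found in 17 and 16 of the 18 adherens junction genes. Long neuronal genes had 1.03 and 0.868 per 100 kb, in 16 and 21 of 22 genes, and ranged up to 6.32 and 5.17 in NLGN1. These lists were chosen with earlier results of the same libraries known and differ from all genes in length, so they describe these genes only.

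The label of the cells was compared with marker genes. At gene starts, 1 of 19 epithelial markers had H3K18bu in both replicates, namely VIL1, and 2 had H4K12bu, the neighbouring keratin genes KRT8 and KRT18, beside 31.5% and 15.3% of all protein-coding genes. EPCAM and CDH1, which define epithelial cells, had no region at the start in any library. Of 21 mesenchymal markers, 6 had H3K18bu at the start, FN1, COL1A2, COL6A3, TWIST2, SNAI2 and FAP, and 2 had H4K12bu, COL1A2 and COL6A3, while VIM had none. A start counted where a region of both replicates reached it, and at COL6A3 the H4K12bu replicate 2 row of that region lay outside the start window. Both replicates also had rows at the starts of TWIST1 and the immune marker CD14 for H3K18bu, and of TWIST2 for H4K12bu. Under this rule those starts were not counted. In introns, 9 of the 16 epithelial genes with introns held an H3K18bu and 5 an H4K12bu member, at 4.23 and 1.76 members per 100 kb, beside 45.2% and 53% of all protein-coding genes at 4.03 and 4.23. Of 20 mesenchymal genes 15 and 13 did, at 6.49 and 6.84. In genes with at least 20 kb the median density was 3.28 and 0 for epithelial and 5.59 and 3.63 for mesenchymal markers. The medians of all such protein-coding genes were 2.74 and 3.94. The genes of each list varied: COL5A1, a fibrillar collagen, held 9 H3K18bu and 32 H4K12bu members and CDH11, a mesenchymal cadherin, 15 and 17, whereas VIM, COL1A1 and COL1A2 held none. Of the epithelial genes, KRT8 held 6 and 5 and CDH1 2 and 0. Of 8 immune markers, 2 had each mark at the start and 2 held intronic members. Most markers of either kind thus lacked both marks at their starts, as did most protein-coding genes, so the marks do not settle the cell type, and the part of the cell type in the values above was not tested.

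The sequence of the members was not used to choose them. Windows of 300 bases around the strongest summit had a median GC content of 49.3% for H3K18bu and 49.7% for H4K12bu, against 39.7% for all 4991100 windows of that size in the same introns. The lowest of the 4 libraries gave 47.3% and the highest 48.7%. Because of this difference the AP-1 letters were read beside mirrored letters of the same composition. A match is a description of the sequence and not evidence of binding.

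AP-1 letters were more common where H3K18bu was present. The letters TGANTCA, on either strand, were found in 15.9% of H3K18bu windows and 12.3% of H4K12bu windows, against 9.27% of all intron windows. The mirrored letters TCANTGA, of equal composition, were in 9.01% and 8.20%, against 10% of all intron windows. In H4K12bu-alone windows the AP-1 share was 8.95%, in H3K18bu-alone windows 15.2%, and in windows of both marks 17.1% around the H3K18bu summit and 16.9% around the H4K12bu summit. The single libraries gave 13.8 and 13.7% for H3K18bu and 11.4 and 10.7% for H4K12bu, so the marks did not overlap. For H3K18bu the share was 15.8% in first and 15.9% in later introns, and for H4K12bu 13.1% in first and 11.8% in later introns.

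The forms of the AP-1 letters were then counted apart. TGAGTCA was found in 11.7% of H3K18bu windows against 4.56% of all intron windows, and the form TGAATCA, with the central base changed, in 4.91% against 4.95%. In H4K12bu windows the shares were 8.85% for TGAGTCA and 3.94% for TGAATCA, so the marks differed in both forms. The mirror TCAGTGA, with the same base composition as TGAGTCA, was in 6.44% of H3K18bu windows against 5.59%. In H4K12bu-alone windows TGAGTCA was in 5.86%, its mirror in 5.67% and TGAATCA in 3.32%. Around the summits of the single replicates the share of TGAGTCA was 11.7 and 11.6% at H3K18bu members and 8.85 and 8.57% at H4K12bu members. When members were ranked by the lower −log10 p of the replicates and cut into 4 equal groups, it was 16.7% in the strongest and 9.04% in the weakest H3K18bu group, and 10.1 and 8.21% in those of H4K12bu. This split of the AP-1 letters was added after the shares of TGANTCA had been seen.

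The AP-1 letters lay under the summits. At members with both marks, TGAGTCA occurred 33.1 times per 1000 members in the 50 bases just after the H3K18bu summit and 31.6 times in the 50 bases just before it, against 8.38 and 8.73 at the outer ends of the 1000 bases read on each side. Around the H4K12bu summit of the same members it occurred 30.7 and 30.1 times. At H4K12bu-alone members the corresponding numbers were 11.4 and 12.1, against 7.18 at each outer end. The mirrored letters stayed between 10.7 and 12.6 within 150 bases of the H3K18bu summit of members with both marks.

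**Figure D5:**
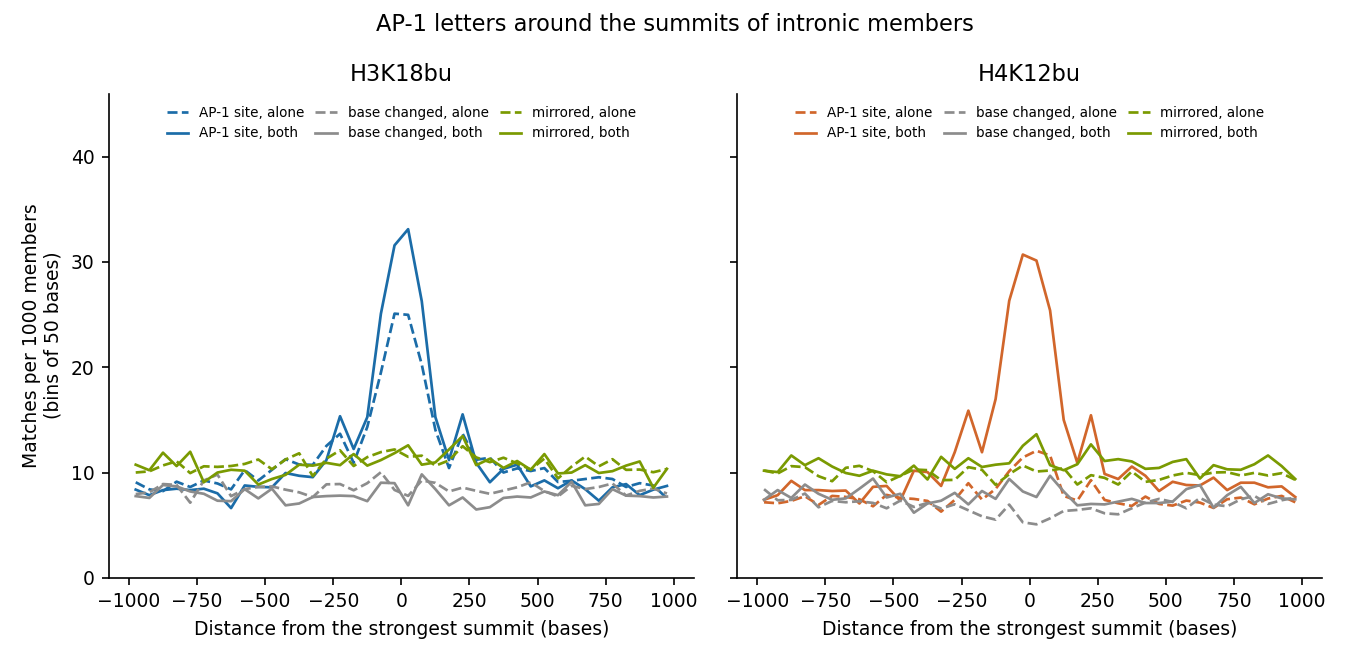
Matches per 1000 members in bins of 50 bases (vertical axis) by distance from the strongest summit (horizontal axis), for H3K18bu summits on the left and H4K12bu summits on the right. Solid lines are members with both marks and dashed lines members with 1 mark alone; coloured lines are the AP-1 site, grey the site with its central base changed and green the mirrored site, and the coloured solid lines peak at the summit, at 33.1 and 30.7.

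Other letters also differed from all intron windows. The E-box letters CAGCTG were in 20.4% of H3K18bu and 19.1% of H4K12bu windows against 9.7%, and the KLF letters CCCCACCC in 6.05 and 5.69% against 2.65%. The TEAD letters ACATTCC were in 5.94 and 4.77% against 4.3%, and the RUNX letters TGTGGTT in 6.71 and 6.13% against 5.78%. The TCF/LEF letters ATCAAAG were less common than in all windows, at 3.37 and 2.97% against 4.97%. The SMAD letters GTCTAGAC were in 0.324 and 0.293% against 0.162%. The paired NFI motif was in 0.0462 and 0.0221% against 0.0198%, and a core of the CTCF motif in 0.0103 and 0.0184% against 0.00178%, so both were too rare to compare. For these letters no match of equal composition was read, and the GC content above moves with them, so its part was not tested.

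Among the other kept regions, those outside genes were nearest to the intronic members in AP-1 letters, closely for H3K18bu and less so for H4K12bu. TGANTCA was in 16.1% of H3K18bu and 14.2% of H4K12bu windows outside genes and in 14.9 and 9.63% of windows over exons. At gene starts the shares were 9.96 and 8.999%. Median GC content was 50.7 and 52.3% outside genes, 55.3 and 56.3% over exons and 60.0 and 58.0% at gene starts. Of the kept H3K18bu regions 54.1% were intronic and of the kept H4K12bu regions 60.0%, and the libraries gave 56.3 and 56.9% against 62.7 and 61.5%.

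At the edges of the rule, the weakest rows at members had a −log10 p of 5.31 and 4.56 for H3K18bu and of 4.81 and 2.97 for H4K12bu, with pileups of 9, 7, 9 and 5. The nearest member began 1001 bases from a gene start, and 2562 members had an edge within 2 kb of one. Of the regions left out for a gene start, 2875 had their nearest edge over 0.5 kb away.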

How the data were processed

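CUT&Tag was analysed in 4 libraries of NaBu treated CCD841 cells; the 8 mouse libraries were not used here. Per the methods and the submitters' processing notes, the authors processed reads with bcl2fastq 2.17.1 and cutadapt 1.9.1, aligned them to GRCh38.p13 with Bowtie2 2.3.1, and called peaks per library with MACS2 2.1.0 in an ATAC-seq pipeline, without pooling and without a control library. The deposited lists have a p threshold of 0.01, a limit of 300000 rows and artifact regions removed, so that the limit sets how many weak peaks each list holds. Each deposited row gives a fold ratio over the local background. The authors' −log10 p and −log10 q values were taken from the same rows. In 2 rows the summit was given as a position on the chromosome and was converted. The lists hold no read totals, so depth is not known directly; pileups were solved from fold and p, which gave whole numbers within 0.01 of the deposited −log10 p in 100% of the 1198152 rows, and the lowest background was 1.40, 1.12, 1.55 and 0.788.

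Regions were annotated with GENCODE 44 on GRCh38, with an overlap of 1 bp. A region inside several genes was assigned to the protein-coding, then the longest gene, and was counted for each gene in densities. Motifs were searched on both strands. Interval overlap, pileups, densities and motifs were tested on simulated data. Python 3.11.15 was used with matplotlib 3.10.9, scipy 1.17.1, pandas 2.3.3 and numpy 2.4.6.

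The members, gene lists and motifs were chosen with earlier results of these data known. Genes named are, per mark, the 10 protein-coding and 3 lncRNA genes of highest density (at least 20 kb of intron and 5 regions), the 3 with most members and none of the other mark, and the 5 strongest members; the 5 genes with most members; the 5 with the longest introns and no member, of which the autosomal ones are described; the densest and least dense of each list; and the markers. The result of 1 gene list is not reported here. Within each ranking, a gene sharing over 50% of its eligible intron with one already taken was skipped; this was not applied between marks, so BDKRB2 and ENSG00000258691 are both named. Other genes, such as EGFR in its list, were named after their values were seen. Alternatives were q below 0.05, the 100000 strongest rows, stretches shared by replicates, the middle of regions, all transcript starts, protein-coding genes, other transcripts, regions inside 1 gene, introns of 10 kb or more, windows of 200 bases and leaving out each library.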

Additional observations from a re-analysis of the deposited data

Results flagged for a closer look

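With introns of all lengths pooled, the density of first over later introns ran in opposite directions for the marks in every library. It was 1.18 and 1.15 in the H3K18bu libraries and 0.869 and 0.886 in the H4K12bu libraries, and the means differed by 0.292. The pooled ratio is listed because all libraries of one mark lay above 1 and all of the other below 1. The difference was not tested, since an exact permutation test of 2 libraries against 2 cannot give a p below 0.333. In introns of 20 to 50 kb, 50 to 100 kb and over 100 kb, all 4 libraries lay above 1. The H4K12bu libraries gave 1.05 and 1.0025 at 20 to 50 kb and 1.20 and 1.11 over 100 kb.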

How the results depend on the processing

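No paired analysis was possible because no result comes from a test. In introns of 10 kb or more, the first-to-later ratio of H4K12bu turned from 0.856 to 1.002, a value that pools 0.741 at 10 to 20 kb with 1.24 over 100 kb, and that of H3K18bu was 1.15. In the other alternatives H3K18bu stayed above 1 and H4K12bu below 1. With the 100000 strongest rows of each list, 30217 members were left, 20036 with H3K18bu and 16816 with H4K12bu; for H3K18bu and H4K12bu in that order the ratio was 1.25 and 0.820, the AP-1 share 19.4 and 13.5%, GC content 50.7 and 51.3% and median gene density 2.49 and 2.33. With stretches covered by both replicates, GC content for H3K18bu was 49.7%, the AP-1 shares 15.65 and 11.6%, H3K18bu gene density 5.56 and the H4K12bu ratio 0.7925. With the middle of the region the ratios were 1.165 and 0.787 and H3K18bu GC content 49.7%. With all transcript starts the H4K12bu ratio was 0.875 and H3K18bu GC content 49.0%, with protein-coding genes the ratios were 1.31 and 0.929, and with the longest transcript the H3K18bu ratio was 1.19. In windows of 200 bases the AP-1 shares were 12.0 and 9.14% and H3K18bu GC content 50.0%. With letters chosen after seeing the data, the AP-1 share was 11.7 and 8.85% for TGAGTCA and 4.91 and 3.94% for TGAATCA.

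Leaving out 1 library, which drops the demand for a second replicate of its mark, gave 139666 to 192660 members, 58594 to 123809 with H3K18bu and 54484 to 162823 with H4K12bu. The number of members rose by over 1.5 times without any of the 4 libraries, and that of a mark's regions only without a library of the same mark. For H3K18bu the ratio was 1.171 to 1.213, the AP-1 share 13.81 to 15.92%, GC content 48.0 to 49.33% and gene density 4.713 to 9.234. For H4K12bu they were 0.8542 to 0.8803, 10.54 to 12.33%, 47.0 to 49.67% and 4.719 to 11.52. Of the densities of the 20 densest genes, 6 moved by more than the spread of the libraries with q below 0.05, 14 with shared stretches, 20 with the strongest rows, to between 4.65 and 21.3 per 100 kb, and 8 to 10 without a library. Pileups of 5 to 9 at the weakest members limit what these lists can separate.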

Other observations

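At members with both marks, TGAGTCA showed a second rise away from the summit. It occurred 15.4 and 15.5 times per 1000 members at 200 to 250 bases before and after the H3K18bu summit, against 12.2 and 11.2 in the neighbouring 50 bases nearer the summit and 11.2 and 10.9 in those farther away. Around the H4K12bu summit the values were 15.9 and 15.4, against 11.9 and 10.9 nearer and 11.9 and 9.87 farther. The summits of both marks lie in the same members, so these are not independent.

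Chromosomes differed in density. Introns of chromosome X had 1.23 H3K18bu and 1.37 H4K12bu members per 100 kb, and those of chromosome 19 had 2.12 and 3.20, whereas chromosome 22 had 4.35 and 4.96 and chromosome 10 had 4.35 and 4.03.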
